A study of Mus musculus with 2 samples.

Results

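Granzyme C to G rich cells were picked out from tumor-infiltrating natural killer (NK) cells by their own RNA. Of 6622 kept barcodes, 93 were members. They carried at least 5 unique molecular identifiers (UMIs, each the tag of 1 captured RNA molecule) summed over Gzmc, Gzmd, Gzme, Gzmf and Gzmg. They also had fewer than 3 of 8 cell cycle genes detected, fewer than 2 UMIs of Cd3d and Cd3e, and no UMI of Tmem176a or Tmem176b. The 93 members were 26 of 3067 kept barcodes in the KO library and 67 of 3555 in the WT library. A barcode was kept with 500 or more genes detected and no more than 10% of its UMIs mitochondrial. Since granzyme counts chose the members, their granzyme levels below are a description.

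The KO library came from mice whose NK cells lack Hif1a, the oxygen-regulated subunit of the transcription factor HIF-1, and the WT library from wildtype mice. Both groups bore subcutaneous tumors of RMA-S, a T lymphoma line of mouse origin that shows little MHC class I, injected 2 weeks before the tumors were taken. CD3ε-negative, NK1.1-positive cells were sorted from them. The libraries were 10x Genomics Chromium 3′ libraries. The sources used here give neither the number, age and sex of the mice nor the Cre line that removes Hif1a. With 1 library per genotype there was no replicate, so no test was made, and every KO against WT value describes these libraries. Intervals are 95% and cover counting error only. Because they treat UMIs as independent, they are too narrow for a gene whose UMIs lie mostly in a few cells.

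Granzymes are serine proteases that NK cells and cytotoxic T cells store in granules and release, with the pore-forming protein perforin, onto target cells. Granzymes A and B are the well-known members in resting and activated mouse NK cells. Mouse Gzmc to Gzmg lie in 1 block with Gzmb and the mast cell chymases on chromosome 14, have no one-to-one human counterparts, and are known from strongly stimulated lymphocytes, among them NK cells after prolonged IL-2 or IL-15 exposure.

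The 5 genes span chr14:56117626-56234656 in the order Gzme, Gzmd, Gzmg, Gzmn, Gzmf, Gzmc, all on the minus strand of GRCm38, over 117.03 kb, with the start of Gzmb 27.6 kb beyond that of Gzmc. Their upstream sequences are shown because the members were defined by the summed RNA of these near copies. In windows of 300 bases around the start site (250 before, 50 after), the 10 pairs among the 5 promoters were 74.6% to 93.4% identical, while identity to the windows of Gzmb, Gzmn, Mcpt8 and Ctsg reached at most 53.4%. The 250 bases before each RefSeq start (GRCm38.p6, minus strand) are given 5′ to 3′. Capitals mark the letters ACTTCCT (an ETS type core), TGTGGT or its reverse complement ACCACA (a RUNX type core) and TGACGTCA (the cAMP response element).
Gzme: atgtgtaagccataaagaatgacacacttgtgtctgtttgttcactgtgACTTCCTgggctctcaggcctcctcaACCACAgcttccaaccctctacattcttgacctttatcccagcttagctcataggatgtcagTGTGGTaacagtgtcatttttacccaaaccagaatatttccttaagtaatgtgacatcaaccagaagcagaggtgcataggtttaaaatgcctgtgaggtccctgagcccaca
Gzmd: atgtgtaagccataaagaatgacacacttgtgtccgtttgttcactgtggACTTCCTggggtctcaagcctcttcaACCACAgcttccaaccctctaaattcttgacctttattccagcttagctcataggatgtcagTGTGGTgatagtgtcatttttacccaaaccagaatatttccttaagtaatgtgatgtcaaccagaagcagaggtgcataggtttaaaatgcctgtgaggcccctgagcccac
Gzmg: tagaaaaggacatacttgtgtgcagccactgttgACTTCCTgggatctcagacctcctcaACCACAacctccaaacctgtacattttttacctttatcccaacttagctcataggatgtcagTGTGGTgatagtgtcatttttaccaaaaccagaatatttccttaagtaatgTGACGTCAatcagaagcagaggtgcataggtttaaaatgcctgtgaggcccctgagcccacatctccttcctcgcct
Gzmf: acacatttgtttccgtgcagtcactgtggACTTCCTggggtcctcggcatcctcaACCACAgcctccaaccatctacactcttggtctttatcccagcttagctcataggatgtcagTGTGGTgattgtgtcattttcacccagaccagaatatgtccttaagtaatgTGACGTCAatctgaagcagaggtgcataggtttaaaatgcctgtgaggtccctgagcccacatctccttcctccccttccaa
Gzmc: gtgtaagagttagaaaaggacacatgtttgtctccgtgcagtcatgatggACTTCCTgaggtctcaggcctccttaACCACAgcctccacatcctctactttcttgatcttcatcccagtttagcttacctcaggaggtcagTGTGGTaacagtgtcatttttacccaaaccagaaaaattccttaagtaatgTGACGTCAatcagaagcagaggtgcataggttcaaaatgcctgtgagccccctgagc

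ACTTCCT was present in 5 of 5 windows, 200 to 221 bases before the start, against 9.35% of 32851 mouse promoters of the same length. TGTGGT was present in 5 of 5, once on each strand, against 16.8%. TGACGTCA was present in Gzmc, Gzmf and Gzmg, 57 to 82 bases before the start, against 1.79% of promoters. The hypoxia response letters ACGTG and GCGTG, found in 19.6% and 32.4% of promoters, were in none of the 5 windows. In all, 13 motifs were searched on both strands. The letters TATAAA (13.6% of promoters), TGANTCA (7.81%), TTCNNNGAA (8.30%), GGAAAA (23.4%), AGGTGTGA (1.28%), GGGANTTCC (1.68%) and GGGTGTG (7.95%) were in 0 of 5 windows, and TGCACNC (12.6%) in 1. These matches describe letters only, and the 5 windows are copies of each other, so they are not independent.

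The members carried NK cell RNA, as did the cells around them. Each of 10 NK markers (among them Ncr1, Klrb1c, Klrd1, Nkg7, Eomes, Prf1 and Gzma) had UMIs in the members of both libraries. Their summed level was 30423 CPM (UMIs scaled to a pooled total of 1000000) in KO and 19107 CPM in WT members. In other non-cycling cells it was 24546 and 25023 CPM. Gzma alone held 22444 CPM of the sum in KO and 9791 CPM in WT members, so both member sums were mostly Gzma. Klrb1c, which encodes NK1.1, stood lower in members of both libraries, at 581 and 389 CPM against 841 and 825 CPM, and Eomes at 146 and 113 CPM against 246 and 199 CPM. Klrk1 was also lower, at 304 and 445 CPM against 887 and 932 CPM. Prf1 was higher, at 401 and 405 CPM against 205 and 287 CPM. The KO member richest in granzyme UMIs had no UMI of Ncr1 or Klrk1, while the richest WT member had 11 and 5. Of the 8 basophil and mast cell markers, 6 were at 0 in the members of each library, and the summed level was 33.7 CPM in KO and 203 CPM in WT members, nearly all of it Mcpt8, against 4.34 and 3.76 CPM in other cells. The 3 neutrophil markers were at 0. The 9 myeloid markers summed to 319 CPM in KO and 196 CPM in WT members, against 153 and 157 CPM in other non-cycling cells. The 9 T cell markers in the table summed to 60.0 and 159 CPM, against 28.8 and 48.9 CPM, with 7 of 9 at 0 in WT members and Cd3g at 144 CPM there. Cd3d and Cd3e are among these T cell markers, and the rule capped them in members and other cells alike. Their low counts therefore say nothing on cell type. The part of other cell types in the results was not tested.

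Members were deeper barcodes than the cells they are compared with. The median was 6412 UMIs in KO and 9084 UMIs in WT members, against 3692 and 4273 UMIs in the other non-cycling cells, defined by the same limits but with a granzyme sum under 5. Of the members, 12 of 26 and 28 of 67 lay above the 95th percentile of total UMIs of their library. Doublets were not removed. Each comparison with other cells was therefore also made against cells drawn to match the members' total UMIs. The pooled sums held 266803 UMIs for KO members and 784271 for WT members, against 11280880 and 14342864 for the other cells.

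Granzyme RNA was also found outside the members. A UMI of Gzmc to Gzmg was found in 857 of 2773 other KO cells (30.9%) and 2015 of 2992 other WT cells (67.3%), at 0.962 and 2.30 UMIs per 10000. Barcodes with at least 2 UMIs of Cd3d and Cd3e and a granzyme sum under 5 carried 0.792 and 2.05 per 10000, and 4 WT barcodes rich in hemoglobin carried 1.83. The Cd3 barcodes were cut at the same granzyme sum as the other cells, and the 4 hemoglobin barcodes held 5 granzyme UMIs in all. Whether a granzyme UMI in other cells is background or expression was not tested. Members as a whole carried 165 per 10000 in KO and 217 in WT. At 10 times the rate of other cells or more stood 20 of 26 KO members but 30 of 67 WT members, and 18 WT members against 1 KO member were under 3 times that rate. Each library's own rate was used, 0.962 in KO and 2.30 in WT, so these lines lay higher in WT.

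**Figure D1:**
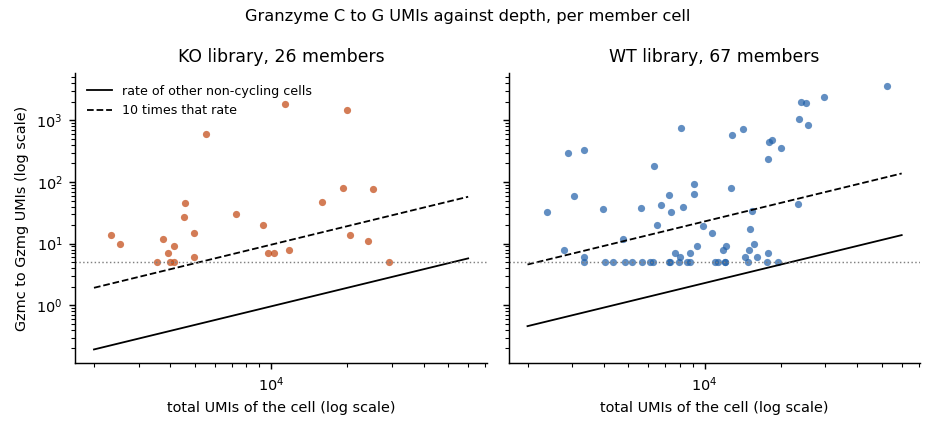
Summed Gzmc to Gzmg UMIs of each member (vertical, log scale) against its total UMIs (horizontal, log scale), with KO left and WT right. The solid line is the granzyme rate of other non-cycling cells of the same library, the dashed line 10 times that rate and the dotted line the threshold of 5 UMIs. Many WT members lie between the lines, and 30 of 67 lie on or above the dashed line.

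Members were a smaller share of the KO library. They made up 0.848% of kept KO cells (26 cells, exact Clopper-Pearson interval 0.554% to 1.24%) and 1.88% of kept WT cells (67 cells, 1.46% to 2.39%), a WT to KO ratio of 2.22. After thinning every cell to 2500 UMIs, which left out 418 KO and 92 WT cells as too shallow, the shares were 0.717% and 1.76%. The whole rule was applied anew to the thinned counts, including its cell cycle, Cd3 and Tmem176 limits. At a granzyme sum of at least 50 there were 5 KO and 21 WT members, 0.163% and 0.591% of kept cells. When members were limited to those at 10 times the other-cell rate or more, the WT share was 0.844% (30 cells) against 0.652% in KO (20 cells). That rate was each library's own, 0.962 UMIs per 10000 in KO and 2.30 in WT, so the line was not common to both. The WT to KO ratio of shares thus differed with the line drawn.

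More cells lay just outside the threshold than just inside it. Just inside, with 5 or 6 granzyme UMIs, were 5 KO and 24 WT members, and just outside, with 3 or 4, were 39 KO and 313 WT cells. The sum ran from 5 to 1860 in KO members with a median of 13, and from 5 to 3561 in WT members with a median of 12. Of all granzyme rich cells (51 KO, 161 WT), those left out for cycling genes alone numbered 2 and 40, those for Tmem176a or Tmem176b alone 18 and 34, and those for Cd3d and Cd3e alone 2 and 12. Among cells within the latter limits, 2 of 28 KO (7.14%, interval 0.877% to 23.5%) and 40 of 107 WT granzyme rich cells (37.4%, 28.2% to 47.3%) were cycling. Of all cells within those limits, whatever their granzymes, 18 of 2817 KO (0.639%) and 119 of 3178 WT (3.74%) were cycling.

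Some WT barcodes could not be told apart by their counts. Over genes with at least 10 UMIs in a pair, 3 pairs of WT members differed by no more than sampling noise, with chi-square per degree of freedom of 0.952, 0.967 and 1.03, while every other pair of members compared stood at 1.55 or above. The third pair had 3331 and 2880 UMIs and nearly the same granzymes: Gzmc 86 and 76, Gzmd 34 and 28, Gzme 21 and 24, Gzmf 91 and 79, Gzmg 101 and 90. A further WT member with 749 granzyme UMIs had such a partner (0.969) with 743, which 2 Cd3 UMIs kept out of the members. A ratio near 1 was not limited to pairs alike in granzymes: a WT member with 4055 UMIs stood at 1.03 over 115 genes with a barcode of 2677 UMIs, their granzyme sums being 5 and 0. Barcode letters differed at 10 to 14 positions in the first 4 pairs and at 16 in the last. Counting each of the 3 member pairs once leaves 64 WT members, or 1.80% of kept cells. The counts of genes given below were then 42 higher and 89 lower in members than in other cells, and 105 higher and 53 lower in KO than in WT members. No such pair was found among KO members, where the lowest ratio was 1.97.

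Gzmc was the most widespread of the 5 genes and carried the largest share of their UMIs in both libraries. It was found in 25 of 26 KO and 67 of 67 WT members and was the leading granzyme in 20 and 55 of them. KO members held 1601 Gzmc UMIs (6001 CPM), 767 of Gzmd (2875 CPM), 241 of Gzme (903 CPM), 1152 of Gzmf (4318 CPM) and 642 of Gzmg (2406 CPM). WT members held 8982 (11453 CPM), 2212 (2820 CPM), 845 (1077 CPM), 2776 (3540 CPM) and 2227 (2840 CPM). Gzmc thus made up 36.4% of the granzyme UMIs of KO and 52.7% of WT members. The log2 ratio of KO over WT CPM was -0.93 for Gzmc, 0.03 for Gzmd (interval -0.09 to 0.15), -0.25 for Gzme, 0.29 for Gzmf and -0.24 for Gzmg. In members with a sum under 50 it was 0.54, -0.97, 1.61, -0.51 and -2.64, of opposite sign for all but Gzmg. Those KO members held only 15 UMIs of Gzmd, 21 of Gzme, 10 of Gzmf and 2 of Gzmg, against 70, 16, 34 and 32 in WT. For Gzmd the interval over all members covered 0, so its sign there was not settled.

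Few cells set these sums. The 3 richest KO members held 89.3% of that library's granzyme UMIs, and the 3 richest WT members 46.8%. The richest KO cell had 1860 granzyme UMIs of 11399, led by Gzmf (564) and Gzmg (538), with 133 of Gzmc. The next had 1482 of 19995 led by Gzmc (668), and the one after 592 of 5555, of which 469 were Gzmc. The KO level of each granzyme therefore rests on these cells.

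Members differed from each other in which granzymes they carried. All 5 genes were detected in 2 KO and 16 WT members, and only 1 of the 5 in 11 and 12. Of the 21 WT members with a sum of at least 50, 14 had all 5, against 2 of 5 such KO members. Single cells departed from the pooled make-up. The fourth KO cell had 72 of 81 granzyme UMIs from Gzmf and the tenth had 14 of 20 from Gzme. The eleventh to fourteenth WT cells carried Gzmc as under 30% of their granzyme UMIs, while the fifteenth had 233 of 234 from Gzmc.

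**Figure D2:**
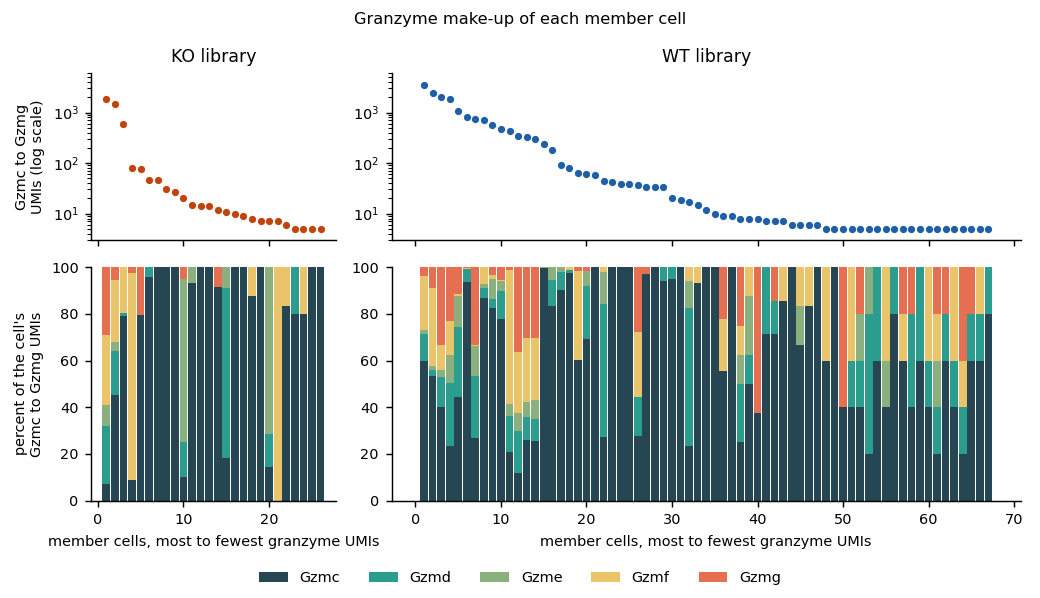
Top, summed Gzmc to Gzmg UMIs of each member on a log scale, ordered from most to fewest. Bottom, the percent of those UMIs from each of the 5 genes. The KO library (26 members, left) falls from 1860 to 78 UMIs within 5 cells, and the WT library (67 members, right) stays at 182 or above over its first 16.

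Gzmd and Gzme went together most closely. Across members, Spearman's rho between their shares of each cell's UMIs was 0.78 in KO (26 cells) and 0.75 in WT (67 cells). For pairs with Gzmc it was 0.12 to 0.21 in KO and 0.30 to 0.49 in WT. Cells share a library and differ in depth, so these values are descriptions. Over the last 300 bases of the transcripts, where 3′ tags lie, pairs among Gzmd to Gzmg were at least 82.4% identical with identical runs of 49 to 72 bases, while Gzmc shared no run over 10 bases with the rest. Gzmn was 78.6% to 84.0% identical to Gzmd to Gzmg there, with identical runs of 41 to 88 bases. Reads of Gzmd to Gzmg and of Gzmn could thus be split uncertainly between these genes, those of Gzmc less so.

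Other genes of the chromosome 14 block were not all high in the members. Mcpt8 (a protease known from basophils, chr14:56082166-56085273) had 8 UMIs in 1 KO member and 157 UMIs in 12 WT members, 30.0 and 200 CPM, against 0.0886 and 2.16 CPM in other cells. Of those members, 1 KO and 11 WT cells had a granzyme sum of at least 50. Among the WT UMIs of Mcpt8, 38 lay in 1 cell, and 28 and 26 in the pair of like barcodes with 3331 and 2880 UMIs. Ctsg (cathepsin G) had 35 UMIs in 1 KO member and 25 in 4 WT members, against 2 and 5 UMIs in all other cells. Gzmn had 6 and 5 UMIs in the members, against 0 and 2 in other cells. Whether these few UMIs were reads of the near copies Gzmd to Gzmg was not tested.

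Gzmb, the main apoptosis-inducing granzyme, stood at 6480 CPM in KO and 5488 CPM in WT members, against 2791 and 2665 CPM in other cells, a log2 ratio of 1.21 and 1.04. Against depth-matched cells, described next, the ratio was 1.16 and 0.34 in a smaller set of members. The WT members of that set stood at 3301 CPM, against 2602 CPM in their matched cells. Matched over all depth ranges, with all members, the ratio was 0.40 in KO and 1.36 in WT. Cma1, a chymase gene at the far end of the block, stood at 195 CPM in KO and 71.4 CPM in WT members against 478 and 276 CPM in other cells. Its depth-matched ratio was 0.03 in KO and -0.72 in WT, so the 2-fold difference was lost. Mcpt1, Mcpt2, Mcpt4, Mcpt9 and Cma2 had no UMI in the members.

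Outside the rule genes, members were compared with other non-cycling cells over 2473 genes with a mean of at least 50 CPM. At least 2-fold higher in both libraries were 42 genes (1.7%), and at least 2-fold lower 88 (3.56%). All log2 ratios are of CPM with 1 CPM added. With median-of-ratios scaling in place of CPM, 56 genes were higher and 67 lower, and without the 3 members richest in granzyme UMIs 25 were higher and 69 lower. Depth was matched by drawing other cells from the same range of total UMIs. In the deepest ranges there were too few to draw from: over all ranges, 1 cell made up 35.7% of the UMIs drawn for KO and 10 cells made up 51.4% of those drawn for WT. The counts over all ranges, of 2431 genes, were 16 higher (0.658%) and 11 lower (0.452%), and at 1.5-fold 2.26% and 3.58% of genes. Ranges with fewer than 10 other cells were therefore left out, a choice made after seeing the data. That kept 20 KO and 47 WT members, among them 2 and 11 with a granzyme sum of at least 50, and left out 51.8% and 54.2% of the members' UMIs. The median was then 4752.5 UMIs in KO and 7386 in WT members, against 4890 and 7508.5 in the matched cells. Of 2446 genes measured this way, 15 were 2-fold higher (0.613%) and 4 lower (0.164%), of which 12 and 2 were among the 42 and 88. Most of the 42 and 88 genes were thus not 2-fold apart in this smaller set of members against cells of like depth, and 8 of the 15 and 1 of the 4 were also called over all ranges. The deepest members have no such comparison. Matched values below are of the smaller set on both sides.

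The 12 genes 2-fold higher in both settings were Mcpt8, Ifitm1, AA467197, Spp1, Ly6a, Fcrl6, S100a4, Cd55, Glrx, Thy1, Pglyrp1 and Spint2. Against cells matched over all ranges, 7 of the 12 were also 2-fold higher. Ly6a, Fcrl6, Glrx, Thy1 and Spint2 were not, and Fcrl6 stood there at 0.98 in KO and -0.17 in WT. AA467197, Cd55, Glrx and Spint2 were named after their values were seen. Spp1, the secreted glycoprotein osteopontin, stood at 3381 CPM in KO and 2495 CPM in WT members, against 99.7 and 173 CPM in other cells. Among members with matched cells it stood at 2792 and 1819 CPM against 319 and 281 CPM, a log2 ratio of 3.13 and 2.69. In KO, 3 cells held 88.8% of the Spp1 UMIs of all members, and in WT 32.3%. S100a4, a calcium-binding protein, stood at 373 and 457 CPM against 155 and 80.8 CPM in matched cells, a ratio of 1.27 and 2.48. Thy1, a surface glycoprotein, stood at 443 and 749 CPM against 205 and 218 CPM.

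Pglyrp1, a bacterial cell wall binding protein of granules, stood at 723 and 802 CPM against 239 and 344 CPM in matched cells. Cd55, a membrane inhibitor of complement, stood at 85.5 and 91.9 CPM against 22.8 and 30.6 CPM. S100a6, at 2301 and 3330 CPM over all members against 704 and 1028 CPM in other cells, had matched ratios of 0.83 in KO and 1.47 in WT, under 2-fold in KO. Against cells matched over all ranges its ratio was 1.81 in each library. C1qtnf6, a secreted protein with a C1q-like domain, had matched ratios of 0.92 and 1.55, and of 2.25 and 1.27 over all ranges.

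Several of the largest ratios came from very few cells. Ifitm1 (a membrane protein that restricts virus entry) stood at 67.5 and 354 CPM over all members against 3.10 and 16.3 CPM in other cells, with UMIs in 1 KO member and 15 WT members, of which 3 held 80.2%. Ifitm2 stood at 172 and 199 CPM against 5.05 and 12.1 CPM, with UMIs in 4 and 19 members. The metallothioneins, which bind zinc and copper, had UMIs in few KO members: Mt1 in 4 KO and 30 WT members, at 71.2 and 379 CPM, and Mt2 in 3 and 19, at 60.0 and 170 CPM. Against matched cells the KO ratio was 0.57 for Mt1 and 0.67 for Mt2, and the WT ratio 2.09 and 2.51. Matched over all ranges, the KO ratio was 1.38 and 3.11, and the WT ratio 3.55 and 4.35. In KO members with a granzyme sum under 50, Mcpt8, Ifitm1 and Mt2 had no UMI.

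Epas1, which encodes HIF-2alpha, was too low for the filter but stood at 93.7 CPM in KO and 37.0 CPM in WT members (25 and 29 UMIs in 6 and 14 cells), against 2.48 and 1.88 CPM in other cells. It was named after its values were seen.

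Checkpoint receptors are surface proteins that restrain lymphocytes. Of 6 measured, 4 were at least 1.5-fold higher and 1 lower in members in both libraries, where 5.18% of all measured genes were higher and 11.9% lower. Lag3 stood at 311 CPM in KO and 196 CPM in WT members against 35.6 and 38.3 CPM in other cells, and at log2 ratios of 0.86 and 1.93 against matched cells. Ctla4 stood at 172 and 67.6 CPM against 21.8 and 19.0 CPM, but its matched ratio was -0.65 in KO and 1.31 in WT. Klrg1, an inhibitory receptor of mature NK cells, had matched ratios of 1.11 and 1.25. Against matched cells 2 of 7 checkpoint receptors were 1.5-fold higher, beside 1.51% of all measured genes, and the list median was 0.57 in KO and 0.68 in WT.

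Glycolysis genes, whose products break down glucose, stood higher against all other cells. Of 10 measured, 6 were 1.5-fold higher and 0 lower, with a list median of 0.88 in KO and 0.74 in WT, beside -0.05 and -0.12 over all measured genes. Gapdh stood at 869.6 and 1660 CPM against 435 and 737 CPM in other cells. Among members with matched cells it stood at 723 and 1474 CPM against 689 and 1035 CPM. The matched list median was 0.08 and 0.26, with 0 of 10 genes 1.5-fold apart. Of 17 secretory pathway genes, 6 were 1.5-fold higher and 2 lower against all other cells, and 0 were either against matched ones.

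Immediate early genes are those switched on first after a stimulus. Of 18 measured, 14 were 1.5-fold lower in both libraries and the list median was -1.13 in KO and -1.29 in WT. Against matched cells 5 of 19 were 1.5-fold lower, beside 2.98% of all measured genes, and the medians were -0.51 and -0.67. Fos stood at 101 and 173 CPM in members against 400 and 786 CPM in other cells, and in the matched comparison at 179 and 284 CPM against 358 and 631 CPM. Dusp1, a phosphatase that shuts off MAP kinases, stood at 131 and 117 CPM against 596 and 435 CPM, with matched ratios of -0.78 and -0.95.

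Some receptor and chemokine genes also stood lower, with ratios nearer 0 in the matched comparison. The Ly49 receptor Klra4 stood at 495 and 379 CPM in members against 1294 and 1394 CPM in other cells, with matched ratios of -0.50 in KO and -1.36 in WT. Il18r1, the receptor chain for IL-18, stood at 120 and 113 CPM against 395 and 314 CPM, with matched ratios of -0.89 and -0.93. The chemokine Ccl5 stood at 7016 and 9619 CPM against 23273 and 32159 CPM, with matched ratios of -0.71 and -0.62. Cd7, a surface receptor of T and NK cells, had matched ratios of -0.37 and -0.98.

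**Figure D3:**
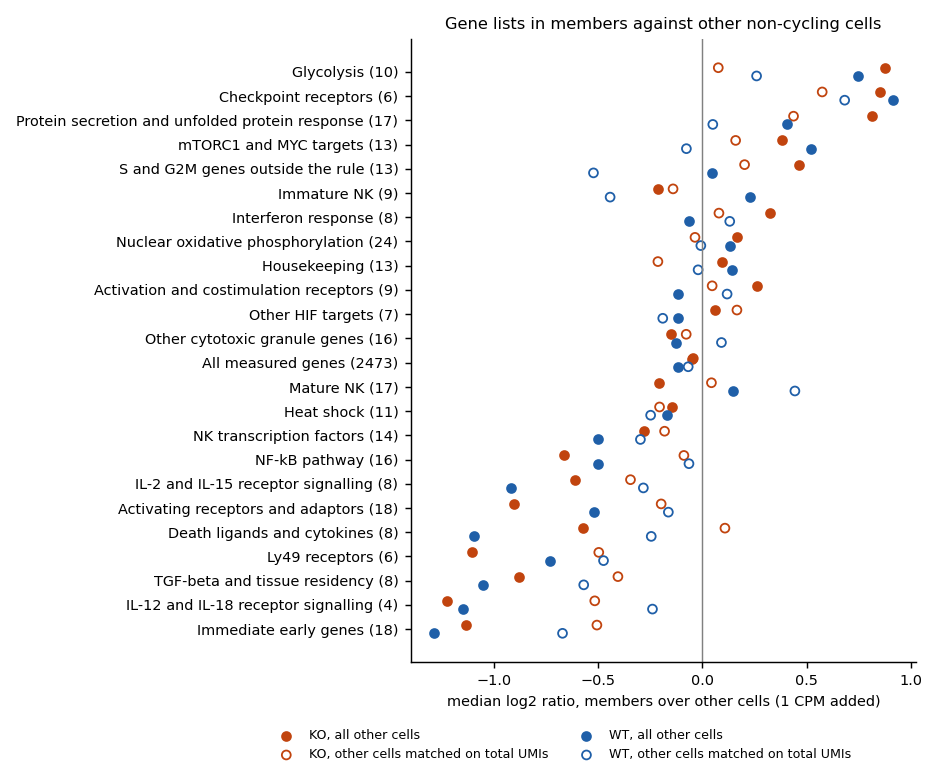
Median log2 ratio of each gene list with at least 4 measured genes, members over other non-cycling cells (horizontal), for KO (orange) and WT (blue), against all other cells (filled) and against other cells matched on total UMIs (open); the number of measured genes against all other cells is in parentheses. Glycolysis lies at 0.88 and 0.74 against all other cells and at 0.08 and 0.26 against matched ones, where 20 KO and 47 WT members could be matched.

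Levels in cells of weak, middle and strong granzyme sums differed by gene. Spp1 stood at 81.7, 1202 and 9538 CPM in KO members with sums of 5 to 9, 10 to 49 and 50 or more, and at 918, 2373 and 3944 CPM in WT members. S100a4 was already at 455 CPM in KO and 331 CPM in WT members with sums of 5 to 9, against 75.9 and 82.3 CPM in other cells. Mcpt8 stood at 0, 0 and 98.5 CPM in KO and at 0, 22.1 and 448 CPM in WT members. Over the 42 higher genes, 34 kept their direction in both libraries in members with a sum under 50, and 16 were still 2-fold higher. All 88 lower genes kept their direction there, and 30 were 2-fold lower. Those 21 KO and 46 WT members are part of the cells that made the calls, set against the same other cells. Keeping direction is therefore no separate check of the calls.

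**Figure D4:**
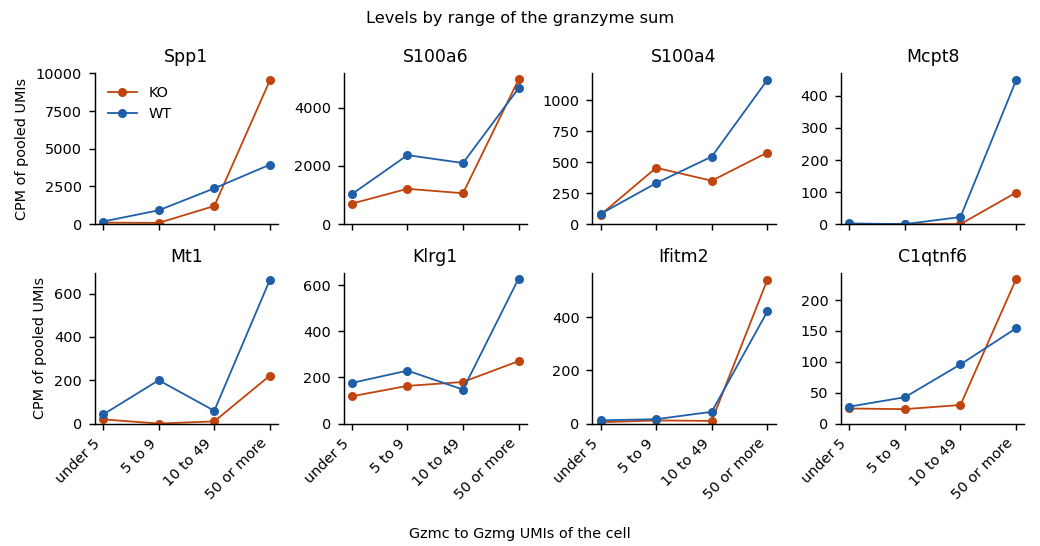
Level of 8 genes (vertical, CPM of pooled UMIs, each panel with its own scale from 0) by the granzyme sum of the cells (horizontal; under 5 is the other non-cycling cells) in KO (orange) and WT (blue). Mcpt8 and Ifitm2 are at most 44.2 CPM in members with a sum under 50 and at least 98.5 CPM above it, while S100a4 is at least 331 CPM from a sum of 5 on. The KO points rest on 10, 11 and 5 members and the WT points on 32, 14 and 21.

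Across members, the share of a cell's UMIs from Gzmc to Gzmg was compared with the share from each of 2898 genes. By the lower of the 2 libraries' Spearman values, Klrg1 (0.34 in KO, 0.37 in WT) and Spp1 (0.49 and 0.34) went along with it most, followed by Nucb1 (0.42 and 0.32). Ndufa4, a respiratory chain gene, went furthest the other way (-0.67 and -0.61), followed by the NK receptor gene Klrc2 (-0.52 and -0.43). Depth differs between these cells, and shares of a fixed total are not independent.

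The comparison of KO with WT members asks how loss of Hif1a goes with the RNA of these cells. Hif1a itself had 14 UMIs in 10 KO members (52.5 CPM) and 53 UMIs in 27 WT members (67.6 CPM), a log2 ratio of -0.36 (-1.33 to 0.51). Tags near the 3′ end can lie outside the deleted part, so it is no check of the deletion. Of 2411 genes that reached 50 UMIs in the members, 102 stood 2-fold or more higher in KO (4.23%) and 54 2-fold or more lower (2.24%). With median-of-ratios scaling the counts were 70 and 82. With every cell thinned to 2500 UMIs they were 23 and 23, of which 10 and 7 were among the 102 and 54. Most of these calls were thus not made again. The rule, with its cell cycle, Cd3 and Tmem176 limits, was applied again to the thinned counts. It gave 19 KO and 61 WT members, which need not be the same cells as the members above. The minimum of 50 UMIs was kept, so fewer genes could be called. Calls lost for want of UMIs were not told apart from ratios that fell under 2-fold or from the change of cells. The counting interval excluded 0 for all 102 and for 47 of the 54 (1.95%). Of these 102 and 47, 93 and 35 had the same direction in other non-cycling cells and 32 and 9 were 2-fold apart there too. In all, 57 genes were 2-fold apart in other cells. The share of all measured genes with the same direction in both is not given here.

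Vegfa, which encodes an angiogenic factor, stood at 229 CPM in KO and 34.4 CPM in WT members, a log2 ratio of 2.70 (2.06 to 3.44), beside 2.26 in other cells. Nr4a1, an orphan nuclear receptor induced by stimulation, stood at 480 and 77.8 CPM, a ratio of 2.61 beside 2.21. Ifng, the cytokine interferon gamma, stood at 465 and 93.1 CPM, a ratio of 2.31 beside 0.99 in other cells, and at 0.36 in members with a sum of at least 50. Il21r, a cytokine receptor chain, stood at 214 and 33.2 CPM, a ratio of 2.65 beside 1.06. The lipid droplet gene Hilpda stood at 521 and 126 CPM, a ratio of 2.04 beside 1.22.

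Snap47, a membrane fusion protein of the SNARE group, had the highest ratio, 3.43 (2.54 to 4.63), with 43 UMIs in 9 KO members and 11 UMIs in 5 WT members, beside 0.00 in other cells. Gzma, named after its values were seen, stood at 22444 CPM in KO and 9791 CPM in WT members, a ratio of 1.20, beside 0.07 in other cells. In KO, 3 members held 48.4% of those Gzma UMIs, and in members with a sum under 50 the ratio was 1.42. Whether any ratio differs between members and other cells was not tested.

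Lower in KO members were Mcpt8 (30.0 against 200 CPM, log2 ratio -2.70), Ifitm1 (-2.38) and Mt1 (-2.39), whose UMIs came from 1, 1 and 4 KO cells. Klra9, a Ly49 receptor gene, stood at 105 and 363 CPM, a ratio of -1.78 (-2.41 to -1.23) beside -0.21 in other cells, with UMIs in 12 of 26 and 49 of 67 members. Fcgr3, the low-affinity Fc receptor CD16, stood at 26.2 and 102 CPM, a ratio of -1.92 beside -0.18. Serpinb9b, a granzyme inhibitor family gene, stood at 30.0 and 119 CPM, a ratio of -1.95 beside 0.26. Itgam, the integrin CD11b of mature NK cells, stood at 22.5 and 75.2 CPM, a ratio of -1.70 beside 0.04. The member ratio turned to 0.26 when cells were thinned to 2500 UMIs and members chosen again.

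**Figure D5:**
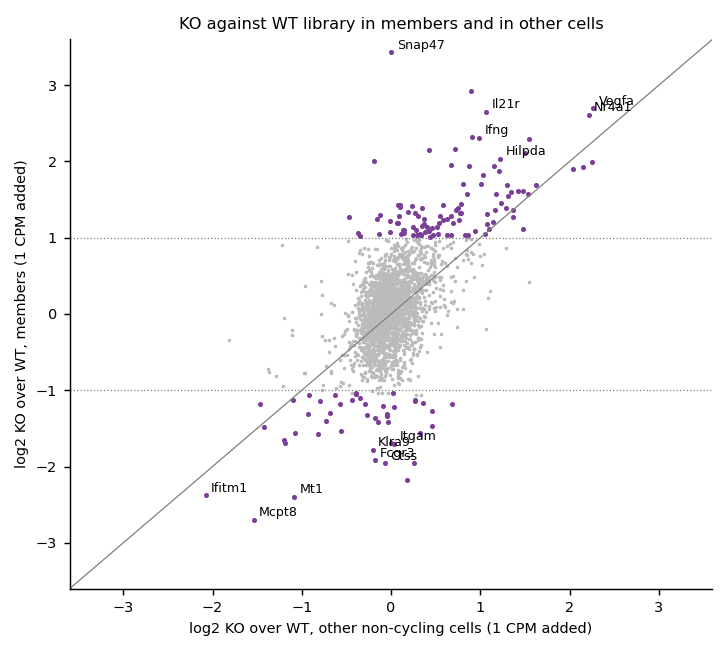
Log2 ratio of KO over WT CPM in members (vertical) against that in other non-cycling cells (horizontal) for 2411 genes, with 1 CPM added; purple points are the 102 and 47 genes at least 2-fold apart in members whose counting interval excludes 0. Vegfa and Nr4a1 lie near the diagonal, and Snap47 lies at 3.43 over 0.00.

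By list, the mature NK genes were lower in KO members, with 11 of 17 at least 1.5-fold lower and 2 higher, beside 8.54% and 12.2% of all measured genes, and a median of -0.72 beside -0.14 in other cells. Besides Itgam, S100a10 stood at -0.93 and Vim at -1.06, while Cma1 (1.44) and Gzma (1.20) were the 2 higher. Of 8 measured HIF targets outside glycolysis, 5 were higher and 0 lower, with a median of 1.02 beside -0.04 in other cells: Vegfa, Hilpda, Cited2 (1.41), Ndrg1 (1.25) and Ddit4 (0.79). S100a10, Vim, Ndrg1, Ddit4 and Eno1 were named after their values were seen. Of 12 NF-kB pathway genes 8 were higher, with a median of 0.93 beside 1.07 in other cells. Of 12 glycolysis genes 4 were lower, among them Eno1 (-1.30) and Pgk1 (-1.07), and 0 higher, with a median of -0.29 beside -0.51. The NF-kB median was -0.003 in members with a sum of at least 50 (5 KO and 21 WT cells). The libraries' members also differed in depth, at median 6412 and 9084 UMIs, and in the number of strong granzyme cells, and the part of either in these ratios was not tested.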

How the data were processed

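Single-cell RNA of tumor-infiltrating NK cells was available as 1 table per library. The deposited values were whole-number UMI counts per gene symbol and barcode, not normalized. Per the submitters' processing notes, Cell Ranger 2.0.2, Seurat and build mm10 were used in unstated roles; the sources used here do not give the annotation, cell calling or doublet removal. UMIs of members and of other non-cycling cells were pooled per library and scaled to CPM (Python 3.11.15, numpy 2.4.6, scipy 1.17.1). Ratios are log2 with 1 CPM added; ratio intervals are exact conditional binomial, without the added CPM. Genes needed a mean of 50 CPM over the 4 sums, or 50 UMIs over both member sums for KO against WT; the 17 rule genes were left out. Depth-matched cells were drawn with replacement, 10 per member within 10 depth bins, with a fixed seed. Bins with fewer than 10 other cells were left out (169 distinct KO and 357 WT cells remained).

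Named genes are the 12 highest and 12 lowest of each comparison, up to 4 per gene list, the chromosome 14 block and the 10 highest and lowest along the granzyme share, leaving out sex-linked markers, unnamed models and genes of mitochondria, ribosomes, hemoglobin or antigen receptors; others are said to be named after their values were seen. The members, 25 gene lists and 8 marker lists were chosen with earlier results of these data known. The ratios and intervals were tried on simulated pooled counts drawn with counting error only. Spread between cells was not simulated, so the trial does not cover it. Barcodes found in both libraries numbered 19, none of them members. Positions are from GENCODE M21 on GRCm38, and promoters and transcripts from RefSeq and GENCODE. The result for 1 gene is not reported here.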

Additional observations from a re-analysis of the deposited data

How the results depend on the processing

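No paired analysis was possible because each genotype had 1 library. The reported shares are 0.848% in KO and 1.88% in WT, with 42 genes higher and 88 lower in members than in other cells, and 102 higher and 54 lower in KO than in WT members. The cause of a move was not tested. Over all settings, 347 of the members against other ratios of named genes lost the 2-fold line and 92 gained it, and 27 KO over WT ratios lost it.

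By the rule for members, a granzyme sum of at least 3 gave shares of 2.12% and 10.7%, 9 genes higher and 0 lower than other cells, and 144 lower in KO; 145 were higher in KO, 44 of them shared. A sum of at least 10 gave 0.522% and 0.985%, 154 lower than other cells and 34 lower in KO. With no cycling gene detected the WT share was 1.07%, with 66 genes higher and 30 lower in KO; with no limit on cycling genes it was 3.01%, with 192 lower in KO. Leaving Gzmc out of the sum gave 0.293% and 0.647%, 156 lower than other cells and 54 higher in KO. Without the Cd3 and Tmem176 limits the shares were 1.5% and 3.21%. Leaving out cells above the 95th percentile of UMIs gave 0.481% and 1.15%, 26 genes higher and 22 lower than other cells (16 and 12 of them shared with the reported ones), and 58 higher in KO.

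By the values, thinning to 2500 UMIs gave 73 genes higher (29 shared) and 120 lower (50 shared) than other cells. It gave 23 higher and 23 lower in KO, with the minimum of 50 UMIs kept. Members and other cells were chosen again from the thinned counts. KO over WT turned to -0.76 for Cd28, 1.06 for Ctss and 0.26 for Itgam. The mean over cells gave 34 lower than other cells, and median-of-ratios scaling 82 lower in KO. A minimum of 25 gave 72 higher and 152 lower than other cells and 239 higher and 161 lower in KO, and a minimum of 200 gave 11 and 36, then 16 and 11. Without the 10 richest members 18 were higher and 38 lower than other cells. Against cells matched over all depth bins the counts were 16 and 11, and the mean ratio turned for Ctla4 (-0.074), Dut (-0.13), Gapdh (-0.0044), Phgdh (-0.055), Bst2 (-0.042), Sdf2l1 (-0.38) and the glycolysis list (-0.047).

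Chosen after seeing the data, matching without bins of fewer than 10 other cells gave 15 higher and 4 lower than other cells and turned Nfkbid to 0.023. Members at 10 times the rate of their own library's other cells gave a WT share of 0.844%. Members with a sum under 50 gave 21 higher and 34 lower than other cells, 57 higher in KO, and a mean ratio of -0.15 for Mt2. Those with 50 or more gave 0.163% and 0.591%, 72 higher and 215 lower than other cells, 32 higher in KO, and -0.0025 for the NF-kB list. Without the 3 richest members 25 were higher than other cells. Depth limits every value: KO members held 266803 UMIs in 26 cells, and single cells can set a gene, as the 35 Ctsg UMIs of 1 KO member do.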
